A study of Mus musculus with 6 samples.

Results

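The genes described here are the integrins and the other molecules by which leukocytes hold on to the vessel wall. They were matched by a symbol pattern: integrin alpha and beta chains, intercellular adhesion molecules, Vcam1, selectins, Selplg, Madcam1, Cd34, Cd44, Alcam and Mcam. The platelet chain Itga2b was left out. The set was chosen with earlier results of these data known. The pattern found 43 of the 26264 genes in the expression table. These are 17 integrin alpha chains, 9 beta chains, 8 adhesion molecules of the immunoglobulin superfamily, 6 selectins and selectin ligands, and 3 proteins that bind integrin tails or share the prefix (Itgb1bp1, Itgb1bp2 and Itgb3bp), which are not integrins themselves.

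The data are 6 RNA libraries of sorted liver endothelium from C57BL6 mice: 3 from mice fed a control diet and 3 from mice fed PLX5622 at 1200 ppm, all for 1 month. PLX5622 inhibits the CSF1 receptor and depletes macrophages, microglia included. Cells of a single liver lobe were sorted on CD31, so each library is a bulk sample of every CD31-positive cell in that lobe. The titles call the samples biological replicates, without saying whether each came from its own mouse. The p-values therefore set the diet difference against the spread between these samples, which may differ from that between mice.

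Leukocytes leaving the blood are first caught by selectins on activated endothelium, which bind sugar-decorated ligands such as Selplg. They then stop when their own integrins (Itgal with Itgb2, Itgam with Itgb2, Itga4 with Itgb1 or Itgb7) grip Icam1, Icam2, Vcam1 or Madcam1 on the endothelial surface. Endothelial cells have a second set of integrins, mostly built on Itgb1, that anchors them to matrix. In the liver, leukocytes stop in the sinusoids largely without selectin-dependent rolling, while E- and P-selectin belong to the larger or the activated vessels.

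The endothelial label held. The 15 pan-endothelial markers summed to 15038 to 15310 TPM in control libraries and 14493 to 15519 TPM in PLX5622 libraries. Pecam1, which encodes CD31, stood at 1510 to 1981 TPM (transcript abundance scaled for length and library total) in control libraries and 1557 to 1853 in PLX5622 libraries. Both libraries numbered 1 stood apart in sinusoidal markers, and by summed level in markers of larger vessels. The summed level of 14 sinusoidal endothelial markers was 8775 TPM in control replicate 1 and 9713 TPM in PLX5622 replicate 1, against 12973 to 16373 TPM in the other 4 libraries. The summed level of 14 markers of larger vessels was 10819 and 9764 TPM in those libraries, against 7531 to 8890 TPM in the others. Control replicate 1 also had the most hepatocyte RNA, 5390 TPM over 19 markers against 1580 to 3329 TPM, with Alb at 929 to 2368 TPM in control and 442 to 978 TPM in PLX5622 libraries. Cholangiocyte markers were low, at 12.5 to 92.5 TPM over 10 genes. The depth worked out from the values was 14517959 to 32732212 reads per library.

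The sorted liver endothelium carried high levels of RNA for molecules that hold leukocytes, and no adhesion gene passed the test between diets. These are RNA levels, not protein at the vessel wall, and any effect of cell isolation on them was not tested. On a per-length scale, 10 of the 43 genes exceeded 100 TPM in every library (Sele, Selp, Icam1, Icam2, Vcam1, Mcam, Itgb1, Itga1, Itga5 and Itga9), and 19 exceeded 10 TPM in every library. Itgad and Itgb2l were listed at 0 throughout. The integrin alpha chains that leukocytes themselves carry were near the bottom: Itgal, Itgam, Itgax, Itga4 and Itgae averaged below 3 TPM in either diet. Itgb2, Selplg and Itgb7 averaged 3.61, 4.05 and 27.8 TPM over the 6 libraries.

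**Figure D1:**
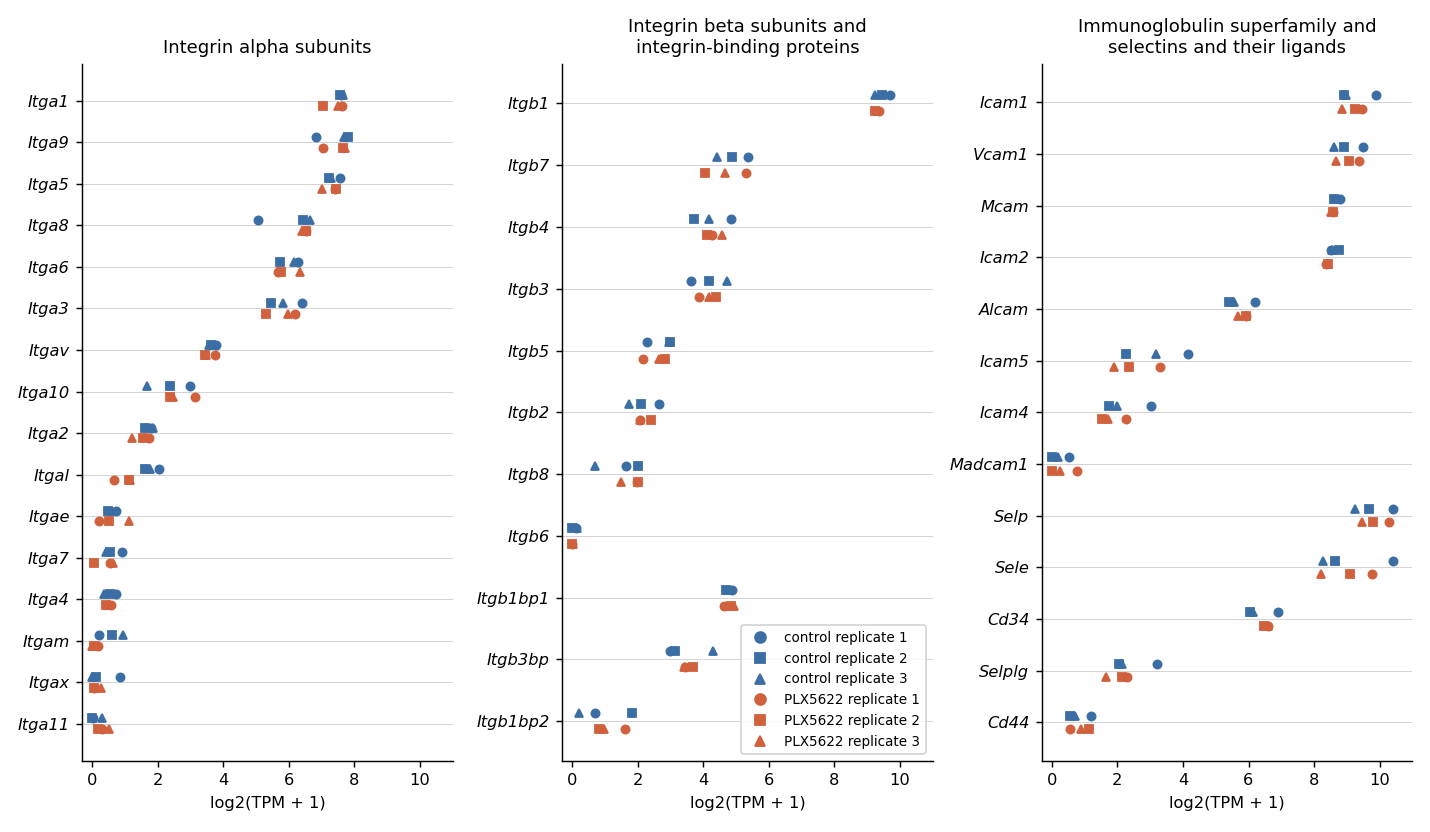
Level of 40 adhesion genes, Itgad and Itgb2l (at 0) not drawn, in each of the 6 libraries, as log2(TPM + 1), coloured by diet with a marker shape for each replicate number. Selp, Sele, Itgb1, Icam1 and Vcam1 are the highest, and the leukocyte chains Itgal, Itgam and Itgax are at or below 3.10 TPM.

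With limma on log2(TPM + 1), 31 of the 43 genes had a mean of at least 1 TPM and were tested. Of these, 0 passed the adjusted threshold of 0.05, as did 0 of the 13739 genes tested (0%), and every adjusted p was 0.99998. Before adjustment, 1 of 31 had a p under 0.05 (3.23%), lower on PLX5622, and 0 were higher; over all tested genes the share was 3.34%, with 1.7% lower and 1.64% higher. The voom fit of limma to the recovered reads likewise passed 0 and gave 1 gene an unadjusted p under 0.05 (Itgal). With no filter on low values 2 were lower (Itgal and Itgam), against 2.04% of all genes in that fit. For 3 of 31 genes (9.68%) the control and PLX5622 values did not overlap, all 3 lower on PLX5622. Over all tested genes that share was 8.68%, with 4.5% lower and 4.18% higher. The fold changes were below 0 for 18 genes and above 0 for 13, a share below 0 of 58.1% against 53.8% over all tested genes. Their median log2 fold change was -0.07, and that over all tested genes was -0.02. In the authors' deposited table, made with DESeq2, 39 of the 43 genes appear and 0 pass the adjusted threshold, against 0.0729% of its 15097 genes. Before adjustment, 2 of the 39 have a p under 0.05 in the authors' deposited table (5.13%), both lower, against 3.18% of its genes, 1.63% lower and 1.55% higher. Without both libraries numbered 1, a choice made after seeing the data, limma gave 1 of the 31 genes an unadjusted p under 0.05 (Cd34, higher), against 5.68% of all genes tested, and 12 did not overlap between diets, against 36.2%.

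**Figure D2:**
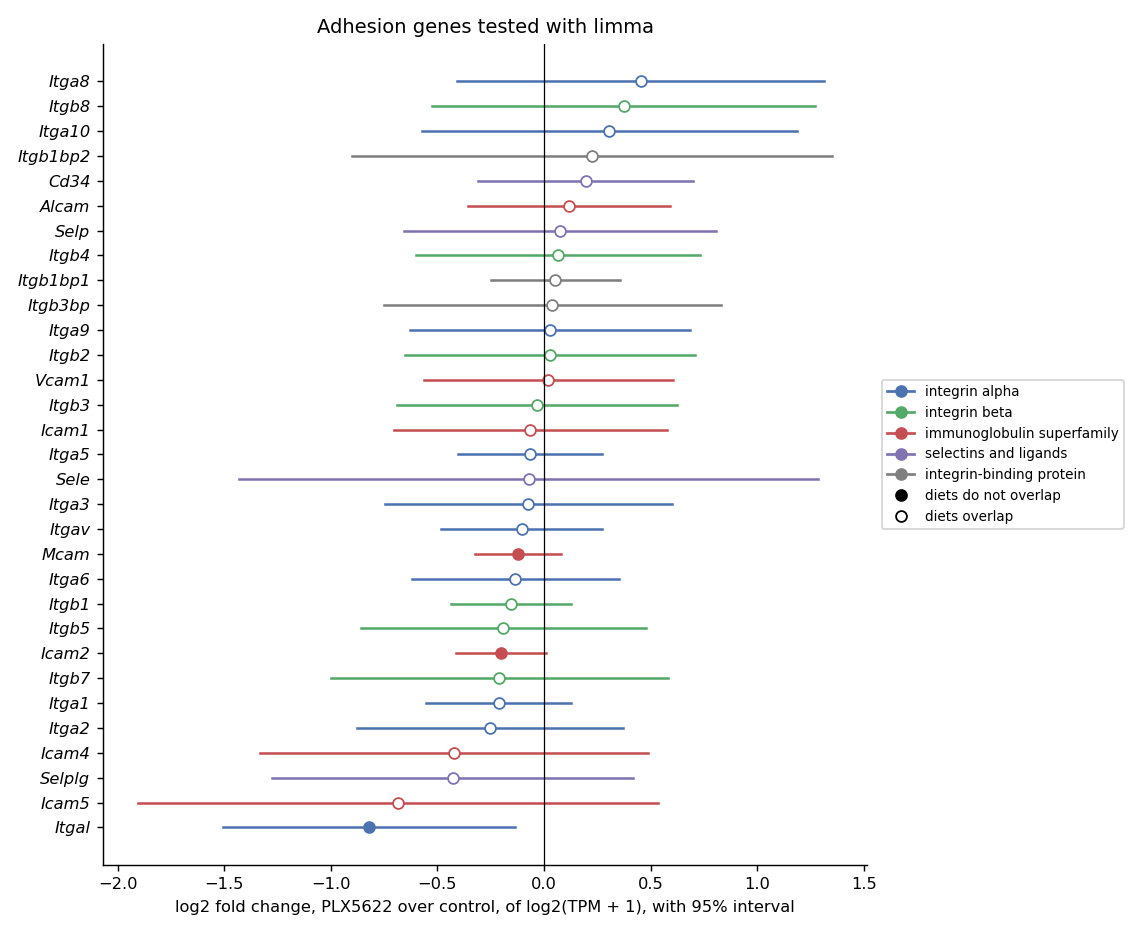
Log2 fold change of PLX5622 over control for the 31 tested genes, with 95% intervals of the limma fit on log2(TPM + 1), ordered by size and coloured by role. Filled points mark the 3 genes whose libraries do not overlap between diets (Mcam, Icam2 and Itgal), and the interval of Itgal is the one that leaves out 0.

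The selectins were among the most abundant genes and the most uneven between libraries. Sele, E-selectin, which endothelium makes after cytokine stimulation, stood at 1349, 395 and 306 TPM in control replicates 1 to 3 and at 864, 549 and 296 TPM in PLX5622 replicates 1 to 3. The highest library was 4.56 times the lowest, the means were 683 ± 578 and 569 ± 284 TPM (SD, n = 3), and the diets overlapped. Its log2 fold change was -0.07, with an interval from -1.43 to 1.29. Selp, P-selectin, which endothelium and platelets store in granules, stood at 1368, 809 and 607 TPM in control libraries and at 1255, 883 and 709 TPM in PLX5622 libraries. Its diets overlapped as well, and its log2 fold change was 0.08 (interval -0.66 to 0.81). The GENCODE annotation of build GRCm38 places 438 exon bases of Selp opposite the noncoding gene Gm16548, which stood at 112 to 219 TPM. The libraries were unstranded, so reads of that stretch cannot be assigned to one of the genes.

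The immunoglobulin-type ligands of the leukocyte integrins were of the same order. Icam1, the cytokine-inducible ligand of Itgal and Itgam, stood at 947, 477 and 498 TPM in control libraries and at 700, 607 and 463 TPM in PLX5622 libraries, with overlap. Vcam1, the ligand of the Itga4 integrins, stood at 721, 484 and 389 TPM and at 657, 530 and 405 TPM, with means of 531 ± 171 and 531 ± 126 TPM (SD, n = 3). Their log2 fold changes were -0.06 (interval -0.70 to 0.58) and 0.02 (interval -0.56 to 0.60) in the fit without pairs of replicate numbers. In that fit, differences of up to about that width in either direction could not be told from the spread. With a replicate block in limma the fold changes were the same. Their unadjusted limma p was then 0.684 and 0.820, against 0.822 and 0.940 without the block. Icam1 shares 511 exon bases with the antisense gene Gm47079 in the same annotation, a name that is not in the expression table.

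Sele, Selp, Icam1 and Vcam1 ranked the libraries alike: control replicate 1 was the highest, PLX5622 replicate 1 came next and then PLX5622 replicate 2 for all 4 genes. Replicate 1 was the highest of its diet in both diets for 15 of the 31 tested genes (48.4%), against 17.1% of all tested genes, and the lowest in both for 4 (12.9%), against 20.3%. The 15 include all 4 of the tested selectins and ligands (Sele, Selp, Selplg and Cd34) and 6 of the 7 tested immunoglobulin-type genes (all except Icam2). The 4 that were lowest are Itgb3, Itgb5, Itga9 and Icam2. The same libraries have the lowest sinusoidal and the highest larger-vessel marker sums given above. A list of 27 other genes of cytokine activation of endothelium, receptors and signalling genes included, averaged 6.41, 6.15 and 5.88 log2(TPM + 1) in control libraries. In PLX5622 libraries it averaged 6.28, 6.33 and 5.90. Control replicate 1 was the highest there too, while PLX5622 replicate 2 stood above PLX5622 replicate 1. The part of vessel type in these differences was not tested.

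**Figure D3:**
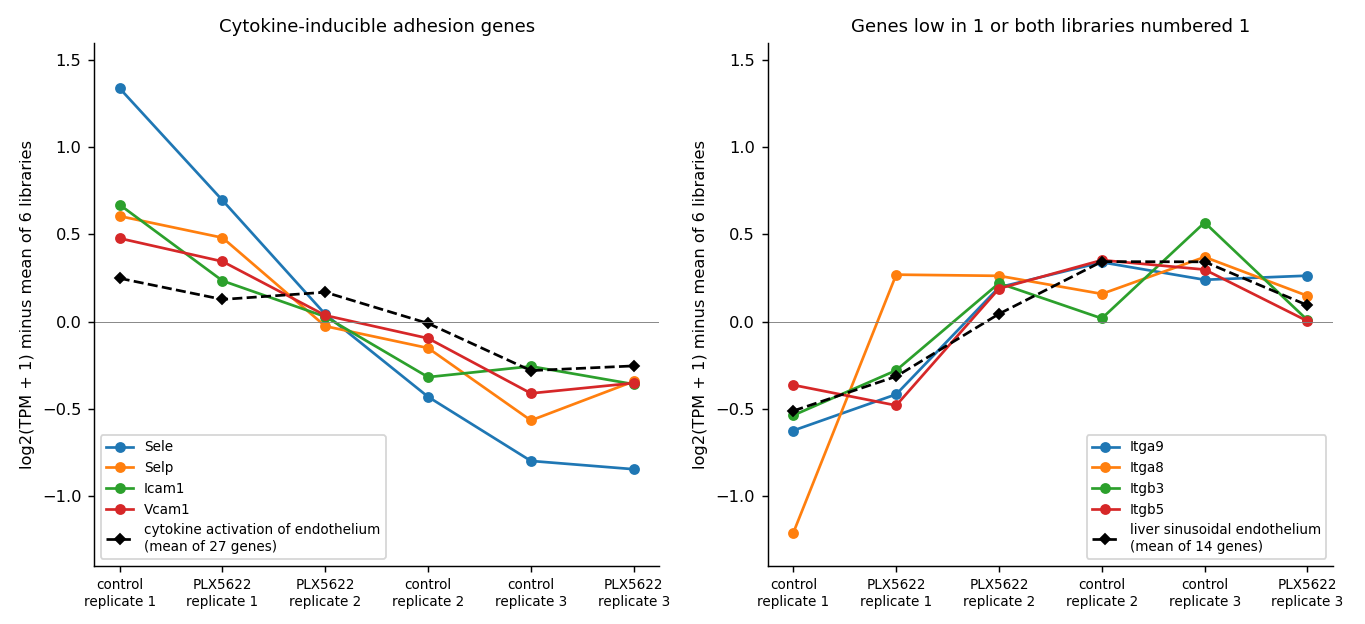
Level per library as log2(TPM + 1) minus the mean of the 6 libraries, with libraries ordered by their Sele level; lines only guide the eye. On the left Sele, Selp, Icam1 and Vcam1 are highest in both libraries numbered 1, beside the mean of 27 genes of cytokine activation of endothelium (dashed). On the right Itga9, Itgb3 and Itgb5 are lowest in both libraries numbered 1, and Itga8 is low in control replicate 1 alone. The dashed line on the right is the mean of 14 sinusoidal markers.

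The start regions of Sele, Selp and Icam1 are shown because these are 3 of the 4 cytokine-inducible genes that ranked the libraries alike; that of Vcam1 is not shown. Each run is 300 bases around the RefSeq gene start in build GRCm38.p6, plus strand, at chr1:164047984-164048283 for Sele, chr1:164115014-164115313 for Selp and chr9:21015690-21015989 for Icam1. Capitals mark matches to GGNNNTTCC or its reverse GGAANNNCC, a short form of the sequence bound by NF-kappaB.
Sele: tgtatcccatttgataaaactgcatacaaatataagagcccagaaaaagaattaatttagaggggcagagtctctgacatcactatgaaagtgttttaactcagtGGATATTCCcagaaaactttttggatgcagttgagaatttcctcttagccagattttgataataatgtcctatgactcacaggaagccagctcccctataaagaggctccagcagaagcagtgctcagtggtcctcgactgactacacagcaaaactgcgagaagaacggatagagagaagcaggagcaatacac
Selp: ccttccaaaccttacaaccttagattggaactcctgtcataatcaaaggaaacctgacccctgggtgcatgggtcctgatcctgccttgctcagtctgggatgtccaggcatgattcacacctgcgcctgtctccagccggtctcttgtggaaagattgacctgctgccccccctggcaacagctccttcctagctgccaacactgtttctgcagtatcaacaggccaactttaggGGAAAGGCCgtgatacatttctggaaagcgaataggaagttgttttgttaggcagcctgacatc
Icam1: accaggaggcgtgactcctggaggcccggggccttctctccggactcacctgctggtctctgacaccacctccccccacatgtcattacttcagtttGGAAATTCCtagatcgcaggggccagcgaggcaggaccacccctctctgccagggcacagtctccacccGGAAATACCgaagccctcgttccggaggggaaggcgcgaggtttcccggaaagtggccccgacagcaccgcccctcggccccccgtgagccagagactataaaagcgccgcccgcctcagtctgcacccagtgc
Sele has 1 match, 145 bases upstream of the start, Selp has 1 at 14 bases upstream, and Icam1 has 2, at 153 and 84 bases upstream. The letters occur in 6070 of 32851 mouse promoters of this length (18.5%) and in those of 8 of the 30 adhesion genes that have one in the table (Icam1, Itga2, Itga5, Itgb1, Itgb2l, Madcam1, Sele and Selp). A match is a description of the letters, not a binding site.

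The constitutive adhesion molecules of endothelium were even between libraries. Icam2, a ligand of Itgal that resting endothelium carries at its junctions, stood at 367, 429 and 371 TPM in control libraries and at 332, 339 and 340 TPM in PLX5622 libraries. All PLX5622 libraries were below all control libraries, the means being 389 ± 34.5 and 337 ± 4.61 TPM (SD, n = 3). Its log2 fold change was -0.20 (interval -0.41 to 0.01), with an unadjusted limma p of 0.0562 and an adjusted p of 0.99998. Mcam, a junctional molecule also known as CD146, stood at 440, 385 and 394 TPM and at 377, 377 and 364 TPM, again without overlap, which was lost with median-of-ratios scaling and with voom on the recovered reads. Its log2 fold change was -0.12 (interval -0.32 to 0.08). The gap between the diets was narrow for both genes: the lowest control library was 367 TPM against a highest PLX5622 library of 340 TPM for Icam2, and 385 against 377 TPM for Mcam.

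Alcam, which binds CD6 on lymphocytes, stood at 72.4, 41.3 and 46.2 TPM in control libraries and at 59.4, 59.2 and 50.3 TPM in PLX5622 libraries, with overlap. Icam4 and Icam5 lie beside Icam1 on chromosome 9 and were far lower, at 1.90 to 7.15 TPM and 2.71 to 16.7 TPM. All 1110 exon bases of Icam4, and parts of Icam5, lie opposite annotated antisense genes, so their reads are uncertain in unstranded libraries. Those antisense genes are not in the expression table. Cd34, a sialomucin that can carry selectin-binding sugars, stood at 119, 64.4 and 68.6 TPM in control libraries and at 94.9, 88.0 and 94.8 TPM in PLX5622 libraries. Its PLX5622 libraries lay within the control range, and its log2 fold change was 0.20 (interval -0.31 to 0.70). Without control replicate 1 the Cd34 fold change was 0.47, with an unadjusted limma p of 0.00156 and an adjusted p of 0.616. The PLX5622 libraries then all lay above the remaining controls, where 22.8% of all tested genes did not overlap in either direction. Selplg, the P-selectin ligand of leukocytes, stood at 8.15, 3.16 and 3.42 TPM and at 3.95, 3.45 and 2.14 TPM, and Madcam1, the gut homing ligand of Itga4 with Itgb7, was at most 0.713 TPM.

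Of the 31 tested genes the leukocyte chain Itgal had the lowest fold change. Itgal, the alpha chain of LFA-1 on lymphocytes and other leukocytes, stood at 3.10, 2.06 and 2.39 TPM in control libraries and at 0.590, 1.18 and 1.23 TPM in PLX5622 libraries. Control and PLX5622 values did not overlap, and the means were 2.52 ± 0.530 and 0.999 ± 0.355 TPM (SD, n = 3). The values rest on 157, 123 and 63 reads in control libraries and 24, 37 and 46 reads in PLX5622 libraries. The log2 fold change of TPM + 1 was -0.82 (interval -1.51 to -0.13), a scale that understates the change of a low gene, with an unadjusted limma p of 0.0251 and an adjusted p of 0.99998. In the authors' deposited table the log2 fold change of Itgal is -1.33, with a p of 0.00178 and an adjusted p of 0.523. The unadjusted limma p was 0.0762 without control replicate 1 and 0.0682 without PLX5622 replicate 1. In these bulk samples fewer leukocytes and less Itgal RNA per leukocyte cannot be told apart.

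Itgam, the alpha chain of Mac-1 on myeloid cells, was too low for the test, with 7, 27 and 22 reads in control libraries and 5, 1 and 0 reads in PLX5622 libraries. Its level was 0.154, 0.505 and 0.930 TPM against 0.137, 0.0355 and 0 TPM, so every PLX5622 library was below every control library, by a narrow margin for control replicate 1. The authors' deposited table gives Itgam a log2 fold change of -3.12, with a p of 0.0120 and an adjusted p of 0.999. By the GENCODE annotation of build GRCm38, 3450 of the 5024 exon bases of Itgam also belong to a same-strand gene model, Gm49368. That name is not in the expression table, so whether the counting split the reads of Itgam is not known. Itgax, of dendritic cells and some macrophages, had 34, 4 and 0 reads in control libraries and 1, 1 and 6 in PLX5622 libraries, and the control value rests on replicate 1.

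Itgb2, the beta chain that all of these share, did not follow Itgal. It stood at 5.23, 3.28 and 2.36 TPM in control libraries and at 3.24, 4.37 and 3.18 TPM in PLX5622 libraries, with overlap, and its log2 fold change was 0.03 (interval -0.65 to 0.71). The summed level of its 4 alpha partners (Itgal, Itgam, Itgax and Itgad) over that of Itgb2 was 0.776, 0.806 and 1.405 in control libraries and 0.234, 0.287 and 0.446 in PLX5622 libraries. The ratio averaged 0.996 ± 0.355 against 0.322 ± 0.111 (SD, n = 3), without overlap, and Itgal supplied most of the numerator.

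Pan-leukocyte and macrophage markers were also at lower levels in the PLX5622 libraries, with 0 past the adjusted limma threshold. Ptprc, which encodes the pan-leukocyte marker CD45, stood at 3.02, 1.65 and 0.978 TPM in control libraries and at 0.249, 0.499 and 0.812 TPM in PLX5622 libraries. The summed level of 15 pan-leukocyte markers was 228 to 232 TPM against 167 to 189 TPM, and of its 10 tested genes all had a fold change below 0 and 3 (Ptprc, Cd52 and Cd53) an unadjusted limma p under 0.05; none of the 15 was at 0 in any library. The summed level of 19 Kupffer cell and macrophage markers was 374 to 515 TPM against 265 to 321 TPM, with 17 of 17 tested genes below 0, 8 of them at an unadjusted limma p under 0.05, and none at 0 in all libraries. Over all tested genes 53.8% were below 0 and 1.7% were lower at that p. Csf1r, the target of PLX5622, stood at 7.13, 5.99 and 8.68 TPM against 1.26, 3.13 and 4.21 TPM, and Clec4f, a Kupffer cell lectin, at 22.0, 13.1 and 34.6 TPM against 3.37, 10.1 and 10.2 TPM. Of these lists 0 genes passed the adjusted threshold with limma, and 1 macrophage marker, Spi1, does in the authors' deposited table.

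The summed marker levels of other leukocytes overlapped between diets, with single genes apart. The summed level of 14 T and NK cell markers was 21.2 to 27.2 TPM in control libraries and 18.2 to 27.5 TPM in PLX5622 libraries, most of it Lck, while the defining marker Cd3e was at most 0.383 TPM and Ncr1 was at 0 in every library. The 9 B cell markers summed to 14.3 to 22.6 TPM against 13.3 to 15.4 TPM, and the 11 neutrophil markers to 1.99 to 7.28 TPM against 2.91 to 7.70 TPM, with Ly6g and Mmp8 at 0 throughout. Csf3r, the receptor of a granulocyte growth factor, stood at 1.43, 0.909 and 1.61 TPM in control libraries and at 3.43, 2.14 and 3.27 TPM in PLX5622 libraries, without overlap (unadjusted limma p of 0.0300); the other tested neutrophil gene, S100a8, overlapped. The 14 monocyte and dendritic cell markers summed to 404 to 529 TPM against 380 to 434 TPM. Of its 7 tested genes, 2 genes of antigen presentation, H2-Aa and Cd74, were lower at an unadjusted limma p under 0.05, and H2-Aa did not overlap between diets (24.9 to 43.4 TPM against 19.9 to 24.7 TPM). The part of macrophages and other leukocytes in the Itgal, Itgam and ratio differences was not tested.

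**Figure D4:**
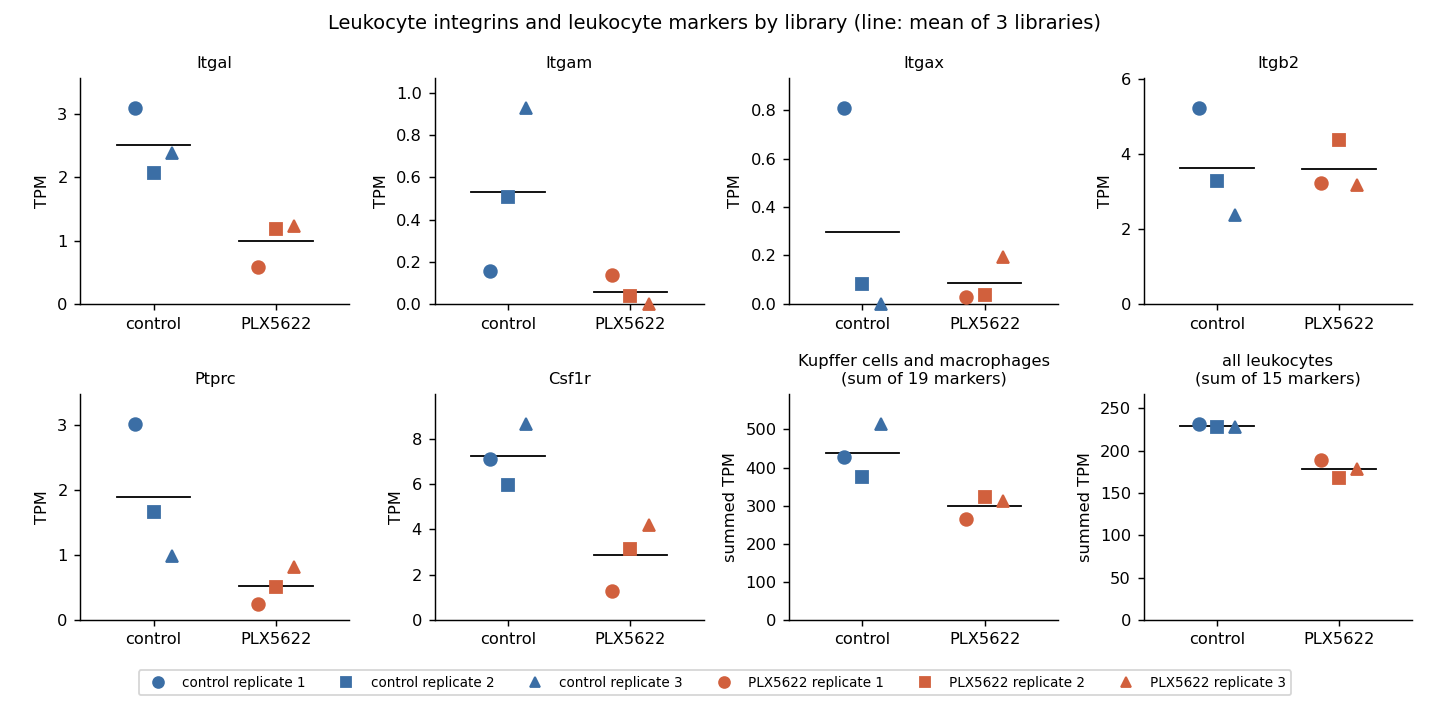
Level in each library of the leukocyte integrin chains, of Ptprc and Csf1r, and of the summed macrophage and pan-leukocyte markers, in TPM, with the mean of each diet as a line and a marker shape for each replicate number. Itgal is at or below 1.23 TPM in all PLX5622 libraries and at or above 2.06 TPM in all controls, while Itgb2 overlaps between diets.

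Itgb1, the beta chain of most matrix receptors, was the most abundant integrin, at 825, 705 and 609 TPM in control libraries and 652, 608 and 647 TPM in PLX5622 libraries. The means were 713 ± 108 and 635 ± 24.0 TPM (SD, n = 3), the diets overlapped, and the log2 fold change was -0.16 (interval -0.44 to 0.13). Its 12 possible alpha partners summed to 703 to 801 TPM, which was 0.856, 1.073 and 1.315 times the Itgb1 level in control libraries and 1.12, 1.16 and 1.17 times in PLX5622 libraries. Levels in TPM are per length and per transcript, so the near balance is one of RNA, not of chains at the surface.

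Itga1, Itga9 and Itga5 made up most of that sum. Itga1, a receptor for collagen IV, stood at 191, 189 and 199 TPM in control libraries and 195, 131 and 180 TPM in PLX5622 libraries, with overlap through PLX5622 replicate 1. Itga5, the fibronectin receptor, stood at 187, 148 and 154 TPM against 168, 174 and 128 TPM. Itga9, a receptor for tenascin and for Vcam1, stood at 112, 220 and 206 TPM against 130, 200 and 209 TPM, low in both libraries numbered 1 and close to equal between diets (log2 fold change 0.03, interval -0.63 to 0.69). The share of the alpha sum was 18.7% to 27.1% for Itga1, 16.9% to 26.5% for Itga5 and 15.9% to 29.2% for Itga9.

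Itga8, which binds nephronectin and is known best from mesenchymal cells, stood at 32.2, 84.7 and 98.2 TPM in control libraries and 91.5, 91.1 and 84.0 TPM in PLX5622 libraries. Its log2 fold change of 0.45 (interval -0.41 to 1.31) was the highest of the 31 tested genes and rested on control replicate 1: without that library it was -0.04. The 16 markers of stellate cells and fibroblasts summed to 512 to 529 TPM in control libraries and 516 to 574 TPM in PLX5622 libraries. Itga6, the laminin receptor, stood at 76.3, 52.0 and 70.8 TPM against 50.4, 52.8 and 79.4 TPM, and Itga3, also a laminin receptor, ranged from 38.5 to 83.2 TPM.

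**Figure D5:**
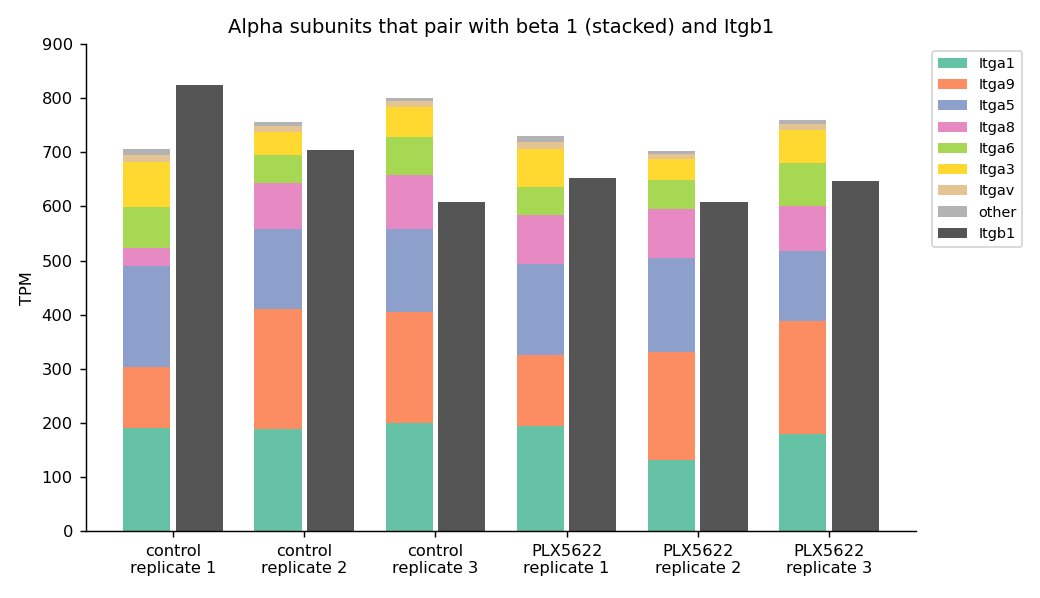
Level in TPM of the 12 alpha partners of Itgb1, stacked, beside that of Itgb1 (dark bars) in each of the 6 libraries. Itga1, Itga5 and Itga9 are the largest blocks in every library, and Itga8 takes 4.56% of the stack in control replicate 1 against 11.1% to 12.95% in the others.

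The remaining beta chains were low to moderate. Itgb3, which pairs with Itgav in endothelium and with Itga2b in platelets, stood at 11.3, 17.1 and 25.5 TPM in control libraries and 13.7, 19.8 and 17.0 TPM in PLX5622 libraries. Itgav, the vitronectin receptor chain, stood at 12.8, 11.4 and 10.9 TPM against 12.4, 9.88 and 10.2 TPM, and its partner Itgb5 at 3.86, 6.99 and 6.69 TPM against 3.48, 6.13 and 5.27 TPM. Platelet markers were present, at 31.3 to 56.2 TPM over 11 genes in control libraries and 31.5 to 64.0 TPM in PLX5622 libraries, and their part in the Itgb3 level was not tested. Itgb4, the partner of Itga6 in hemidesmosomes, ranged from 12.1 to 28.1 TPM, and Itgb8, the partner of Itgav that activates TGF-beta, from 0.639 to 3.01 TPM.

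Itgb7 stood out for lacking its partners. It stood at 39.9, 28.5 and 20.4 TPM in control libraries and 38.3, 15.8 and 24.1 TPM in PLX5622 libraries, with overlap. Its known partners Itga4 and Itgae together reached 0.663 to 1.59 TPM, so that Itgb7 was 15.2 to 57.7 times their sum. Itga4 had 61, 53 and 14 reads in control libraries and 38, 20 and 28 reads in PLX5622 libraries, and 1124 of its 13978 exon bases in the GRCm38 annotation lie opposite Cerkl. Cd44, the hyaluronan receptor that leukocytes use in the sinusoids, stood at 1.28, 0.480 and 0.630 TPM against 0.454, 1.18 and 0.839 TPM, with overlap.

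Itga7, Itga11 and Itgb6 were also below a mean of 1 TPM. Among genes above that level, Itga2 ranged from 1.33 to 2.59 TPM, Itga10 from 2.199 to 7.72 TPM, and the binding proteins Itgb1bp1, Itgb3bp and Itgb1bp2 from 23.9 to 30.0, 6.92 to 18.7 and 0.153 to 2.57 TPM. All of these overlapped between diets.

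By role, the fold changes are given beside the 53.8% of all tested genes that were below 0. Of 10 tested alpha chains 7 had a fold change below 0 (median -0.09), of 7 beta chains 4 (median -0.03), and of 7 immunoglobulin-type genes 5 (median -0.12), against a median of -0.02 over all tested genes. The selectins and ligands were split, 2 below 0 and 2 above, and the 3 binding proteins were above 0 (median 0.05).

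Genes around these molecules gave single members at an unadjusted p under 0.05 and none past the adjusted threshold with limma, where the smallest adjusted p over all genes was 0.99998. The lists were chosen with earlier results of these data known, so their counts are descriptions. Of 31 tested integrin adaptors and activators, 24 had a fold change below 0 (median -0.08) and 3 an unadjusted p under 0.05, where the shares over all tested genes were 53.8% and 3.34%. Rapgef1, an exchange factor that activates Rap1, stood at 126, 128 and 120 TPM in control libraries and 97.1, 98.6 and 102 TPM in PLX5622 libraries, or -0.32 as log2 fold change (interval -0.51 to -0.14). Kank1, which links talin to the cell cortex, stood at 130, 102 and 108 TPM against 134, 154 and 143 TPM, or 0.35 as log2 fold change (interval 0.08 to 0.61). Neither overlapped between the diets, and Kank2 was the other gene of the 3, at 46.8 to 50.9 TPM against 37.1 to 45.1 TPM. In all, 5 of the 31 did not overlap, 4 lower and 1 higher, against 8.68% of all tested genes. Besides the 3 they were Ilk, at 245 to 247 TPM against 213 to 227 TPM, and Ptk2, at 114 to 127 TPM against 91.8 to 113 TPM.

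Of 29 tested matrix ligands of integrins, 19 had a fold change below 0 (median -0.11), and 3 had an unadjusted limma p under 0.05, all lower on PLX5622. Col4a1 and Col4a2, the chains of the basement membrane collagen that Itga1 binds, stood at 568, 772 and 601 TPM against 493, 466 and 479 TPM, and at 320, 449 and 346 TPM against 280, 277 and 279 TPM. Both were lower in every PLX5622 library, with log2 fold changes of -0.42 (interval -0.71 to -0.13) and -0.40 (interval -0.70 to -0.10). Lama5, a laminin chain read by Itga6, was the other, at 90.4 to 104 TPM against 64.4 to 85.0 TPM. The share of the list at that p was 3 of 29, against 1.7% of all tested genes lower. Since the list was chosen with earlier results of these data known, that share is a description and not a test.

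Of 16 tested genes for making selectin ligands, Cd24a, a sialylated ligand that can bind P-selectin, had an unadjusted p under 0.05, at 23.5, 25.9 and 21.8 TPM against 28.6, 55.6 and 55.3 TPM. St3gal3, a sialyltransferase, had the next smallest p, at 23.6, 25.3 and 25.4 TPM against 21.7, 20.3 and 21.6 TPM. Of the 16 genes 3 did not overlap between diets, 1 lower and 2 higher, against 8.68% of all tested genes. Of 17 tested genes of leukocyte passage through endothelium 0 had an unadjusted p under 0.05 (smallest p for Rhog, a GTPase of the cell cortex, and Stab2, a sinusoidal scavenger receptor), and the median was -0.00. Of 26 tested genes of cytokine activation of endothelium 0 did (smallest p for Il6 and Il6ra, a cytokine and its receptor), and the median was 0.03.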

How the data were processed

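Per the submitters' processing notes, the authors worked on build mm39 with R 4.1.0, DESeq2 1.32.0, featureCounts, Subread 2.0.1 and STAR 2.7.10a. Annotation, filters and the way of counting: not given in the sources used here. As deposited, expression is in TPM for 26264 genes. The authors' deposited comparison table (15097 genes) holds a mean normalized count, which is a signal scaled by the authors, the log2 fold change with an error, a score (the Wald statistic) and p-values before and after adjustment, PLX5622 over control. Reads per gene were worked out from the deposited TPM and mean normalized counts: 100% of values below 50 reads lay within 0.05 of a whole number. These reads are not counts of independent molecules, since they may include PCR copies, and they do not cover the spread between samples.

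The 13739 genes averaging 1 TPM or more were tested two-sided with limma 3.58.1 (R 4.3.3, intensity trend) on log2(TPM + 1), with Benjamini-Hochberg adjustment over all of them; intervals are 95% intervals. Steps were tested on simulated data. The values of 1 of the 43 genes are not reported here. The members, the 5 pathway lists and the 13 marker lists were chosen with earlier results of these data known. Genes were named by rule: those with an unadjusted p under 0.05 in limma or the authors' table, those without overlap between diets, the 2 most abundant of each role, a set of well-known members, and the 2 smallest p of each pathway list; other genes in a count of 5 or fewer, and Itga8, Itgb7, Icam5 and their ratios, were named after their values were seen. The alternatives were other pseudocounts, filters, scalings, library weights, limma voom on the recovered reads, a replicate block and leaving out libraries. Replicate libraries differed by more than sampling noise (smallest chi-square per degree of freedom 15.6). Annotation and sequences come from GENCODE and RefSeq on build GRCm38, another build than the authors' own, so positions are of GRCm38 and exon overlaps describe that annotation.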

Additional observations from a re-analysis of the deposited data

How the results depend on the processing

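Across all settings run, 0 adhesion genes passed the adjusted threshold (smallest adjusted limma p 0.616). Of 393 fold changes of 22 named genes over 18 settings, 359 kept their direction and 34 reversed; Cd34, Icam2, Icam5, Itga1, Itgal, Itgav, Itgb1, Mcam and Selplg never did, though 1 library moved them: leaving out 1 at a time gave 0.0353 to 0.47 for Cd34, -0.24 to -0.13 for Icam2, -1.15 to -0.21 for Icam5, -0.33 to -0.0436 for Itga1, -0.20 to -0.0457 for Itgav, -0.26 to -0.0447 for Itgb1, -0.16 to -0.0641 for Mcam and -0.63 to -0.0631 for Selplg. The 359 include values from settings that cannot move a fold change: other filters, no intensity trend, robust fitting and the replicate block. The tally therefore overstates how often a direction was put to a test. Mcam overlapped between diets with median-of-ratios scaling and with voom, leaving 2 genes without overlap. The number lower at an unadjusted limma p under 0.05, given as 1 in the report, was 2 with no filter (Itgal and Itgam), 0 with a minimum of 5 TPM (Itgal untested), 2 with library weights (Icam2 and Itgal) and 0 without both libraries numbered 1, a setting chosen after seeing the data. That setting gave 1 higher with limma (Cd34, log2 fold change 0.45, unadjusted p of 0.00540) and 12 without overlap, against 36.2% of all genes. Leaving out 1 library at a time gave 0 to 2 higher (2, Cd34 and Alcam, without control replicate 1), 0 to 1 lower, 3 to 7 of 31 without overlap (7 without control replicate 1 and without PLX5622 replicate 1, 5 without control replicates 2 or 3), where 14.7% to 22.8% of all tested genes did not overlap, and a median log2 fold change of -0.14 to -0.0265.

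Same-numbered libraries correlated by 0.196, 0.136 and 0.087 in their deviations. Libraries of different numbers correlated by -0.139 to 0.01, so each library correlated best with its own number. The numbers were a block only in an alternative, and the main fit did not take them as pairs. Its p-values and intervals therefore count any shared difference between numbers as spread. The values do not settle whether the numbers mark pairs. With a replicate block in limma, 2 genes were lower before adjustment: Icam2 at 0.0408 and Itgal at 0.0484.

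Itgal stayed below 0, from -0.91 to -0.66 without 1 library, -1.29 with a pseudocount of 0.1, -0.32 with 5 and -1.39 with voom on reads. Directions reversed with library weights for Sele (0.29), Icam1 (0.11) and Itga9 (-0.13), with voom for Itgb2 (-0.0378) and Itgb3 (0.0270), and without both libraries numbered 1 for Sele (0.21), Itga8 (-0.0596), Itga6 (0.0925), Icam1 (0.12) and Itga9 (-0.06). Leaving out 1 library, or both numbered 1, the log2 fold change ranged from -0.49 to 0.58 for Sele, -0.19 to 0.40 for Selp, -0.24 to 0.26 for Icam1, -0.18 to 0.26 for Vcam1, -0.18 to 0.32 for Itgb2, -0.31 to 0.24 for Itgb3, -0.42 to 0.000389 for Itgb5, -0.52 to 0.0902 for Itgb7, -0.15 to 0.0725 for Itga5, -0.34 to 0.0925 for Itga6, -0.0596 to 0.75 for Itga8, -0.28 to 0.24 for Itga9 and -0.0418 to 0.36 for Alcam. The cause was not tested. Genes under 1 TPM rest on few reads, while Sele, with 4499 to 38109 reads, still had an interval from -1.43 to 1.29 in the fit without pairs.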
